A study of Mus musculus with 16 samples.

Results

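The data described here are the 8 libraries of wild-type (WT) tumours in a bulk RNA sequencing series of 16 libraries, 4 from tumours under PBS (the vehicle) and 4 from tumours under cisplatin. They were chosen by their labels alone, and every gene with at least 1 FPKM in at least 4 of the 16 libraries was compared, which left 12319 of 54532 genes (10891 of them protein-coding). FPKM are fragments per kilobase of gene length, scaled for sequencing depth. B16F10 is a mouse melanoma line derived from the C57BL/6 strain. Cells were implanted under the skin of the right flank of C57BL/6J mice of both sexes, aged 8 weeks. Treatment began 8 days later and was given into the peritoneum once a day for 3 days in 2 rounds, with cisplatin at 5 mg/kg. RNA came from disaggregated end-stage tumours, so each library holds tumour cells together with whatever host cells the tumour contained. In such bulk RNA, fewer cells of a type and less RNA per cell cannot be told apart. The other 8 libraries of the series come from BdP tumours, made from B16F10 cells with low Pros1 (labelled both deficient and a knockdown, with no statement on clonality) and given the same 2 treatments. They also enter the gene filter and the fit that sets each gene's spread. Their response is given below beside that of the WT tumours. The labels do not say whether the 4 replicates of a group came from separate experiments, so p-values measure the spread between these tumours only.

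Cisplatin is a platinum drug that binds purine bases and crosslinks DNA. Cells sense the lesions through the kinases ATM and ATR, which stabilise p53, and p53 in turn switches on genes of cell cycle arrest (Cdkn1a), apoptosis (Bbc3, Bax), repair and its own negative feedback (Mdm2). The adducts are removed mainly by nucleotide excision repair, and crosslinks need the Fanconi pathway. These tumours were sampled at end stage, and the time from the last dose to sampling is not given here. What was measured is the state of the tumour at that point. The comparison asks which transcripts differed in that state.

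Reads assigned to genes, recovered from the FPKM, ran from 10051843 to 22763959 per WT library. The mitochondrial share of reads was 76.9% in WT PBS 1, leaving 2322202 nuclear reads, 12.2% and 21.7% in WT cisplatin 3 and 4, and 2.03% to 3.74% in the remaining WT libraries. Values without these 3 libraries are given below for Lamb1 and for a part of the gene lists. Pairwise correlations of log2 values had a median of 0.906 within the PBS group, 0.956 within the cisplatin group and 0.945 between the groups. The labelled identity was borne out by melanosome genes such as Pmel, Tyr and Dct, whose list summed to between 5890 and 10299 FPKM in each WT library. Ddx3y, a Y-linked gene of male hosts, was above 0.1 FPKM in 1 PBS library (WT PBS 4) and 2 cisplatin libraries (WT cisplatin 1 and 2). Host sex was therefore not balanced between the groups, and its part in the differences below was not tested.

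One gene differed beyond the spread between tumours. Lamb1, the laminin beta 1 chain of basement membranes (ENSMUSG00000002900, GRCm38 chromosome 12 from 31265234 to 31329644), measured 1.55, 1.82, 2.32 and 2.46 FPKM under PBS and 4.74, 5.21, 5.31 and 5.46 FPKM under cisplatin. The groups did not overlap, and the lowest cisplatin tumour stood well above the highest PBS tumour. The log2 change was 1.04 ± 0.14 (SE, on the log2(FPKM + 1) scale, which holds for every change below), with a limma adjusted p of 0.0275. It was 1 call in 12319 genes (0.00812%), while 953 genes had an unadjusted p below 0.05, of which 511 were higher and 442 lower. The call was lost without WT PBS 2 or 3, any 1 of the 4 WT cisplatin libraries, BdP PBS 1 or 3, or BdP cisplatin 1, with adjusted p from 0.00998 to 0.209 over the 16 runs and a change that stayed between 0.95 and 1.10. It was also lost when only the 8 WT libraries set the variance (adjusted p = 0.448), and without the 3 libraries rich in mitochondrial reads, where the change was 0.91 (adjusted p = 0.708).

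The promoter of Lamb1 is shown because it is the start of the 1 gene called. The stretch printed is from RefSeq (GRCm38.p6, plus strand) and covers the 191 bases just upstream of the gene's start, chr12:31265043-31265233, with matches to a CCAAT box and to GC boxes (GGGCGG, here on the minus strand) in capitals.
Lamb1: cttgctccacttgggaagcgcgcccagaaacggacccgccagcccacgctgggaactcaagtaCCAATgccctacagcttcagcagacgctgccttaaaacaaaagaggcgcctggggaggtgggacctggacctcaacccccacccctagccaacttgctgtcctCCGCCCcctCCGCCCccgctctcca
Searched on both strands, the 300-base window to which it belongs held 1 CCAAT box, 2 GC boxes and 1 M box core (CATGTG), the last beyond the stretch printed. It held no TATA box (TATAAA), AP-1 site (TGANTCA) or p53 decamer. Of 32851 promoter windows of the same length, 35.7% held a GC box, 37.4% a CCAAT box, 14.2% an M box core, 13.6% a TATA box, 7.81% an AP-1 site and 8.36% a p53 decamer. In the 11339 windows of genes tested here, the set to which Lamb1 belongs, these shares were 62.7%, 37.8%, 8.70%, 7.29%, 5.03% and 6.70%, so GC boxes were more common among expressed genes. These are matches of letters and say nothing of which factor acts there.

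The genes next by p were higher under cisplatin in nearly every tumour but did not pass the adjustment. Ndrg2, of the N-Myc downstream-regulated family, measured 4.37, 4.98, 3.72 and 5.32 FPKM under PBS and 8.29, 9.92, 6.59 and 10.5 FPKM under cisplatin (change 0.80 ± 0.14, adjusted p = 0.151). Prickle1, a component of planar cell polarity, measured 14.7, 20.0, 13.3 and 18.5 FPKM under PBS and 29.2, 26.5, 30.7 and 31.6 FPKM under cisplatin (0.81 ± 0.15, adjusted p = 0.151). Both had every cisplatin tumour above every PBS tumour. Ndufa4l2, a mitochondrial protein known as a hypoxia-inducible gene, went from 4.68, 2.01, 2.11 and 2.04 FPKM to 10.3, 5.81, 7.89 and 11.2 FPKM (1.42 ± 0.28, adjusted p = 0.151). Its highest PBS value was in WT PBS 1, the library with most mitochondrial reads, where the other 3 PBS tumours lay close together. Sema3f, a secreted semaphorin of axon and vessel guidance, was low throughout, at 0.382 ± 0.240 FPKM under PBS and 1.601 ± 0.161 under cisplatin (SD, n = 4). Its change was 0.93 ± 0.17 (adjusted p = 0.151). It passed the filter of 1 FPKM in 4 libraries only through the WT cisplatin tumours, so its separation is partly set by the filter.

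Others among the 12 well-expressed protein-coding genes with the smallest p in this direction cover several functions. Ahr, the ligand-activated aryl hydrocarbon receptor, was at 4.03 ± 0.975 FPKM under PBS and 7.93 ± 2.07 under cisplatin (adjusted p = 0.253). Cited2, a coregulator that binds CBP and p300 and restrains HIF, was at 72.4 ± 21.4 and 126.8 ± 14.3 FPKM (adjusted p = 0.253). Sgpp1 dephosphorylates sphingosine-1-phosphate and Pdcd4 restrains translation through eIF4A, with changes of 0.61 ± 0.14 and 0.75 ± 0.19. Ddah2, of the dimethylarginine hydrolase family, Calcoco1, a coactivator and autophagy receptor, and Tspyl1, of the nucleosome assembly protein family, had changes of 0.74, 0.49 and 0.44. In 11 of the 12 the cisplatin tumours lay above all PBS tumours, Calcoco1 being the exception. Among all genes tested, 216 (1.75%) showed that separation upwards and 183 (1.49%) downwards, and since these 12 were picked for their p the count is a description.

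The 12 genes of smallest p in the other direction were lower under cisplatin by less. Commd10, of the COMMD family of trafficking adaptors, measured 27.2, 30.8, 31.2 and 30.3 FPKM under PBS and 22.9, 23.9, 21.8 and 20.46 FPKM under cisplatin (-0.41 ± 0.08, adjusted p = 0.194). Bdh1, the mitochondrial enzyme that interconverts ketone bodies, measured 12.1, 10.0, 10.7 and 11.95 FPKM and then 8.31, 7.03, 6.96 and 5.17 FPKM (-0.65 ± 0.14, adjusted p = 0.227). Each showed a small shift with tight groups that did not overlap. Cbr2, a carbonyl reductase, measured 13.9, 13.5, 6.57 and 4.74 FPKM under PBS and 1.87, 3.01, 2.66 and 4.56 FPKM under cisplatin (-1.33 ± 0.30, adjusted p = 0.257), where WT PBS 4 and WT cisplatin 4 nearly met. Dnajc3, a co-chaperone of the endoplasmic reticulum, and Spcs3, a signal peptidase subunit, had changes of -0.34 ± 0.08 and -0.43 ± 0.10 (adjusted p = 0.402 for both). The rest were Spdl1, a dynein adaptor of the kinetochore (-0.57), Elovl5, a fatty acid elongase (-0.48), Tmem50b (-0.52), Ppa1, an inorganic pyrophosphatase (-0.37), L3mbtl2, of a Polycomb-type complex (-0.38), Stard4, a sterol carrier (-0.64), and Hap1, the huntingtin-associated protein (-0.48). All 12 had every cisplatin tumour below every PBS tumour, and none passed the adjustment (adjusted p from 0.194 to 0.544).

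**Figure D1:**
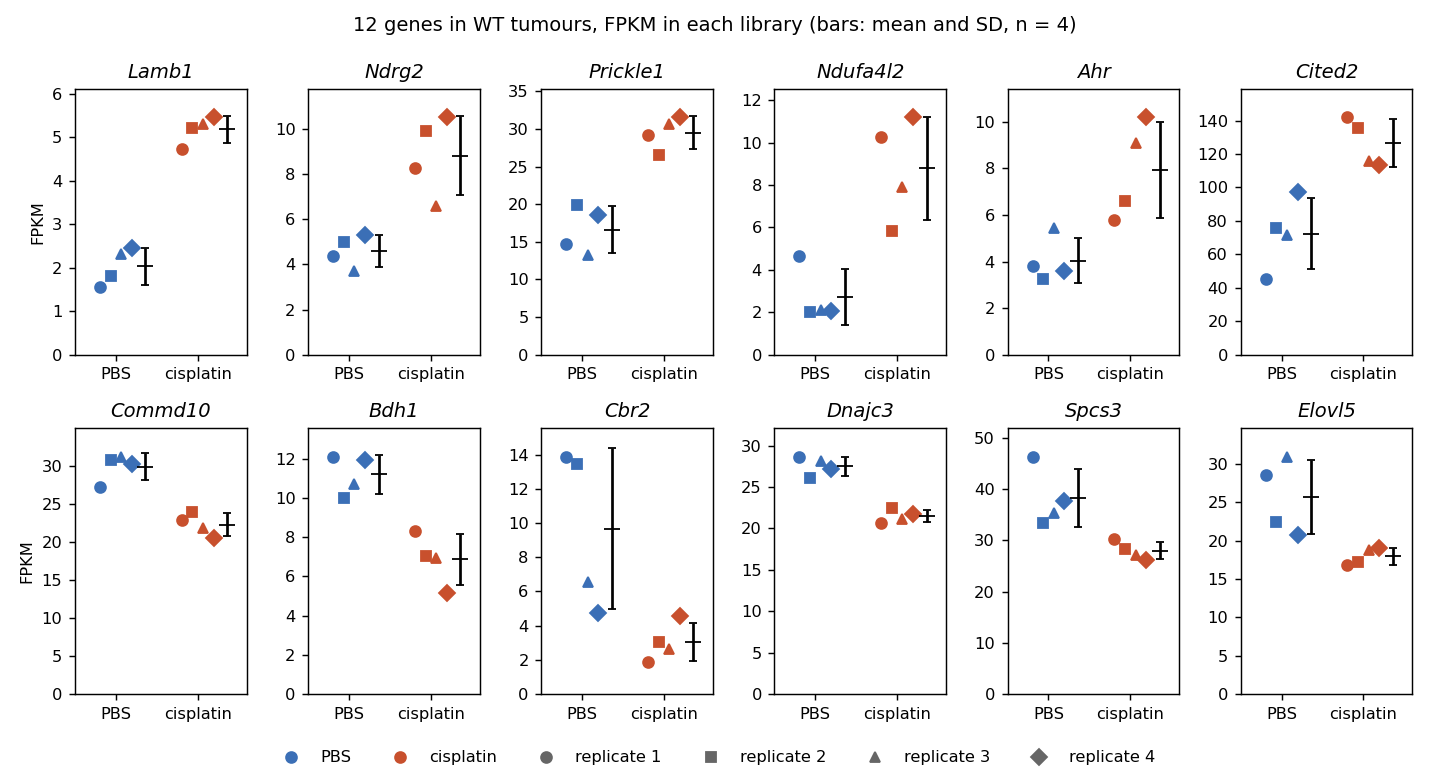
FPKM (vertical axes, each from 0) in the 4 PBS (blue) and 4 cisplatin (red) WT tumours for 12 genes, with marker shape giving the replicate and black bars the mean and SD. Lamb1 is the 1 gene called (1.55 to 2.46 FPKM under PBS, 4.74 to 5.46 under cisplatin), and the groups of the other 11 genes shown do not overlap either but none of these 11 passed the adjustment.

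The genes whose levels tracked Lamb1 most closely over the 8 WT tumours, among 6258 protein-coding genes with a mean of at least 5 FPKM, were Cdk5rap2, a centrosome protein (Pearson r = 0.953), Pdcd4 (0.933), the actin bundler Fscn1 (0.923), Rabgef1 (0.908) and Tspyl1 (0.906), followed by Ets1, Elf2, Sav1, Stim2 and Plcg1 (the last at 0.899). These correlations carry the difference between the 2 groups in them and are a ranking only. Fscn1 measured 7.14, 7.93, 13.9 and 7.72 FPKM under PBS and 20.3, 17.6, 21.6 and 19.5 FPKM under cisplatin (1.07 ± 0.37, adjusted p = 0.596). The PBS tumours were below all cisplatin tumours, with WT PBS 3 nearest to them.

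Genes of sterol synthesis and uptake were lower under cisplatin in most cases. Cholesterol is made from acetyl-CoA through mevalonate and squalene, and the pathway's genes share control by SREBP2, the product of Srebf2, which is active when sterols run short. Of the 21 members tested (Fdps was too low), 19 had a negative change, with a list median of -0.29 where the median of all genes was -0.01 and 49.0% of them were positive. In 8 of the 21 all 4 cisplatin tumours lay below all 4 PBS tumours, against 1.49% of all genes tested, and in 0 above. None was called.

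In the mevalonate steps, Pmvk (phosphomevalonate kinase) measured 25.1, 16.3, 16.9 and 20.2 FPKM under PBS and 15.8, 11.4, 10.8 and 10.7 FPKM under cisplatin (-0.64 ± 0.19). Mvd, the decarboxylase that follows it, measured 36.1, 37.4, 40.0 and 37.4 FPKM under PBS and 35.6, 29.6, 26.1 and 22.95 FPKM under cisplatin (-0.41 ± 0.15). For both, WT cisplatin 1 was the cisplatin tumour closest to the PBS group. At the squalene and lanosterol steps the differences were alike in size: Fdft1 (squalene synthase) -0.32 ± 0.12, Lss (lanosterol synthase) -0.45 ± 0.14, Cyp51 (lanosterol demethylase) -0.44 ± 0.13 and Msmo1 (sterol C4 demethylation) -0.41 ± 0.14. Cyp51 was the most abundant of these, at 64.4, 62.1, 68.2 and 73.8 FPKM under PBS and 56.0, 52.4, 44.8 and 44.1 FPKM under cisplatin. Stard4, which carries cholesterol between membranes, measured 24.4, 12.1, 11.4 and 19.6 FPKM under PBS against a narrow 9.42 to 10.5 FPKM under cisplatin.

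Other members did not follow. Hmgcs1, the synthase at the head of the mevalonate pathway, had a change of 0.09 ± 0.24, with PBS values spread from 16.8 to 49.7 FPKM, lowest in WT PBS 1 and highest in WT PBS 4. Sqle, Idi1, Srebf2, Nsdhl and Hsd17b7 lay between -0.11 and -0.01. Leaving out 1 WT tumour at a time, the list median ran from -0.36 (without WT PBS 1) to -0.19 (without WT PBS 4). It was -0.27 without the 3 libraries rich in mitochondrial reads, and -0.17 relative to all genes in TPM (FPKM rescaled to a fixed total per library). In BdP tumours the median of the same genes was 0.07, with 16 of 21 positive. The smallest p for a difference between the 2 responses was that of Stard4 (unadjusted p = 0.0033, adjusted p = 0.835).

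**Figure D2:**
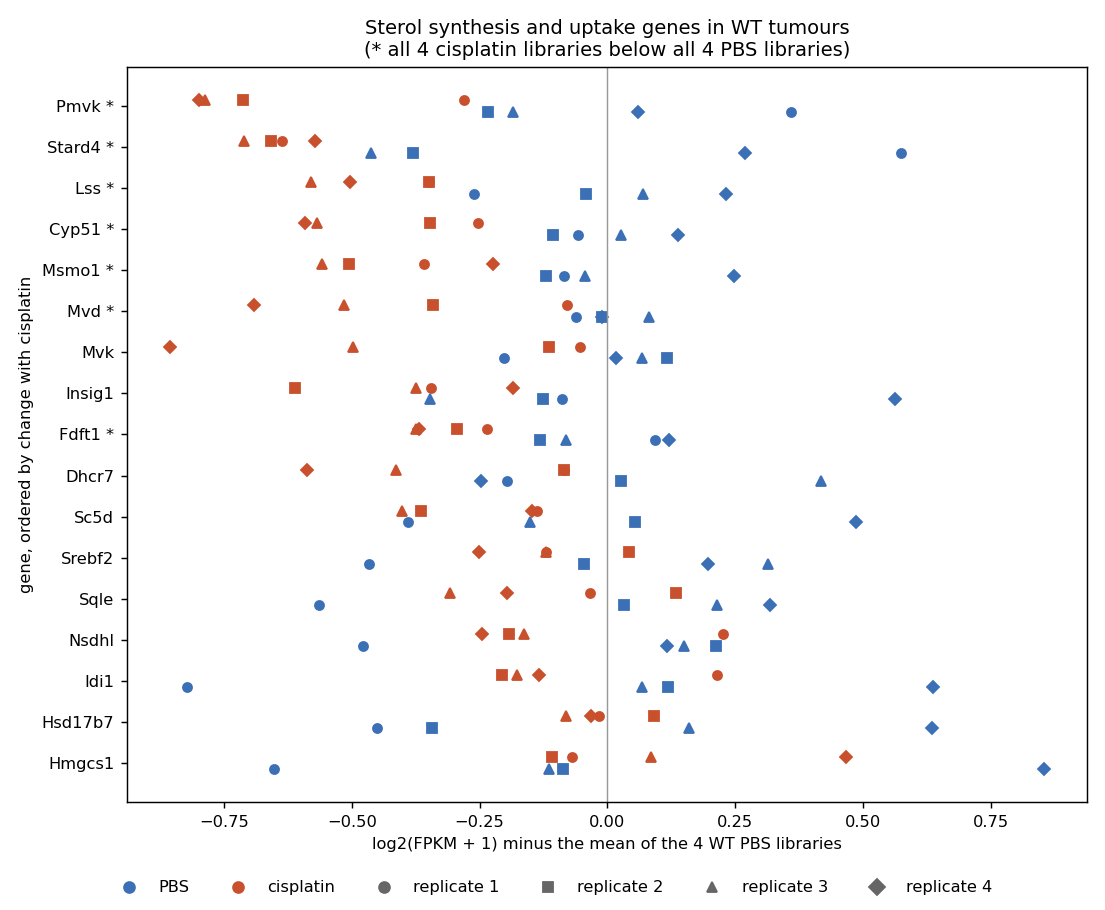
Each of 17 sterol genes of the list (vertical axis) in each WT tumour, as log2(FPKM + 1) minus the mean of the 4 PBS tumours (horizontal axis), with blue for PBS, red for cisplatin, marker shape for the replicate and an asterisk where all cisplatin tumours lay below all PBS tumours. Asterisks mark 7 of the genes shown, with Pmvk and Stard4 (both -0.64) at the top, while Hmgcs1 at the bottom overlaps widely, with WT PBS 1 lowest.

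Genes of the p53 network were higher in most cases and separated the groups in few. Trp53 itself measured 15.95, 24.5, 24.9 and 21.4 FPKM under PBS and 30.8, 27.5, 28.2 and 26.3 FPKM under cisplatin (0.38 ± 0.13, adjusted p = 0.596), every cisplatin tumour being above every PBS tumour. Among its feedback genes and sensors, 9 of 11 were positive with a median of 0.28, which was 0.15 without WT PBS 3. Mdm2, the ubiquitin ligase that degrades p53, was at 15.4, 15.9, 13.5 and 21.2 FPKM under PBS and 20.7, 16.7, 18.8 and 25.5 FPKM under cisplatin (0.29 ± 0.19), and these groups overlapped. Ppm1d, the phosphatase that resets the damage response, and Sesn2, a stress-induced regulator of mTORC1, had changes of 0.38 ± 0.18 and 0.45 ± 0.29, and each was lowest in WT PBS 1.

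Of the arrest genes 9 of 10 were positive, with a median of 0.44. Psrc1, a spindle protein, measured 15.8, 23.8, 13.4 and 24.7 FPKM under PBS and 50.3, 37.3, 27.3 and 33.3 FPKM under cisplatin (0.91 ± 0.26, adjusted p = 0.548), which made it the 1 member of this group without overlap. Such upward separation was seen in 1.75% of all genes tested. Cdkn1a, which encodes the cell cycle inhibitor p21, measured 50.3, 67.3, 61.6 and 111.3 FPKM under PBS and 121.9, 167.4, 67.5 and 82.4 FPKM under cisplatin (0.57 ± 0.28, adjusted p = 0.647). Cisplatin tumours 1 and 2 were above every PBS tumour, while cisplatin 3 and 4 lay within the PBS range. Cisplatin 1 and 2 and WT PBS 4, the highest of the PBS group, were the WT tumours with Ddx3y above 0.1 FPKM. The part of host sex in Cdkn1a was not tested. Plk2, Btg2 and Gadd45a, whose levels in WT PBS 1 were 4.45, 2.05 and 3.48 FPKM against at least 22.4, 6.64 and 6.63 in the other PBS tumours, had changes of 0.66, 0.51 and 0.47. The list median was 0.16 with WT PBS 1 left out, 0.27 with cisplatin 3 left out and -0.14 without the 3 libraries rich in mitochondrial reads.

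Apoptosis targets were positive in 8 of 10 with a median of 0.27, which was 0.12 with WT PBS 1 left out, 0.16 with cisplatin 2 left out and 0.15 without the 3 libraries rich in mitochondrial reads. Bbc3, which encodes the BH3-only protein PUMA, measured 1.69, 4.80, 2.47 and 5.03 FPKM under PBS and 7.63, 7.11, 6.52 and 4.53 FPKM under cisplatin (0.79 ± 0.25, adjusted p = 0.553). Bax, the pore-forming effector, differed little, at 63.4, 77.9, 52.2 and 76.5 FPKM and then 92.8, 75.9, 74.1 and 63.7 FPKM (0.19 ± 0.14). Only cisplatin 4 kept Bbc3 from full separation, and the Bax groups overlapped in part, with WT cisplatin 1 above every PBS tumour and WT PBS 1 and 3 below every cisplatin tumour. Repair targets of p53 were positive in 6 of 10 (median 0.12, and from 0.01 without WT PBS 1 to 0.16 without WT PBS 2 when 1 tumour was left out), with Ercc5 at 0.38 ± 0.19 and Ddb2 at 0.37 ± 0.27. In BdP tumours the medians of the 4 groups were -0.08 (feedback), -0.11 (arrest), 0.13 (apoptosis) and 0.05 (repair). Cdkn1a had the larger change there (1.07 ± 0.28), and the difference between the 2 responses did not pass (unadjusted p = 0.226).

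**Figure D3:**
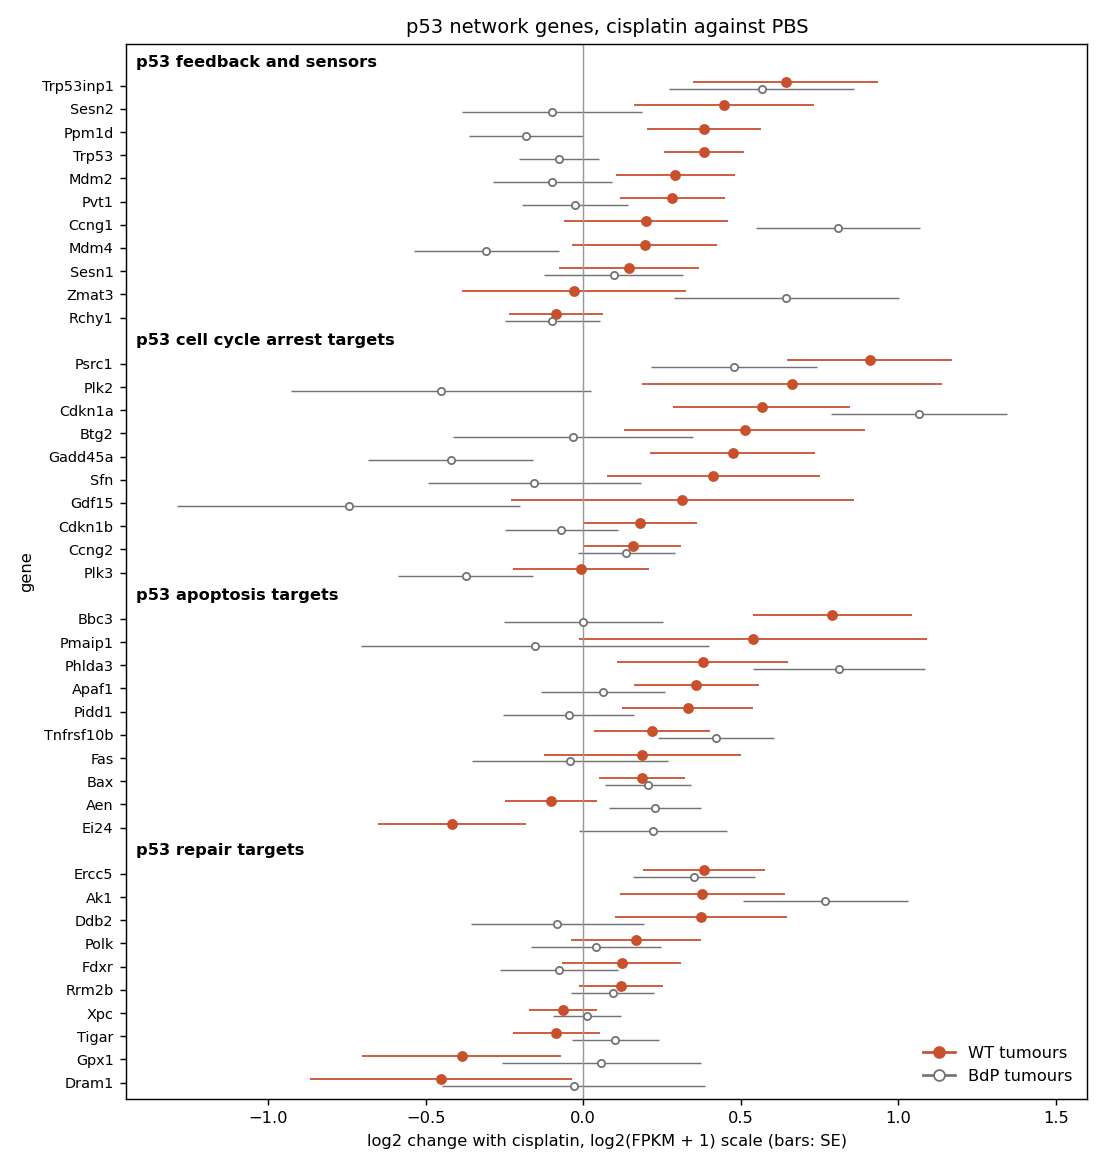
Log2 change with cisplatin (horizontal axis, bars are SE) of p53 network genes (vertical axis) grouped by role, in WT tumours (red) and BdP tumours (open grey). Most WT values lie to the right of 0 (9 of 11, 9 of 10, 8 of 10 and 6 of 10 from top to bottom), with wide errors, and no gene was called in either line.

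Genes that handle the lesion itself showed no shift as groups. The kinases and mediators of damage signalling had 8 of 18 positive (median -0.03), Fanconi and crosslink repair 11 of 20 (0.01), nucleotide excision repair 14 of 22 (0.01) and translesion synthesis 9 of 12 (0.05), beside -0.01 for all genes. Slx4, a scaffold for crosslink-cutting nucleases, was the 1 gene of these groups above every PBS tumour in every cisplatin tumour (0.22 ± 0.11). That separation was seen in 1.75% of all genes tested. Ercc1, partner of the nuclease that cuts 5' of an adduct, measured 8.89 FPKM in WT PBS 1 and 3.66 to 5.00 FPKM in the other 7 tumours (-0.20 ± 0.19). Its sign therefore rests on WT PBS 1, whose value stands apart from the rest.

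Uptake and detoxification differed as little. Slc31a1, the copper transporter that admits platinum, measured 17.6, 26.6, 29.9 and 31.4 FPKM under PBS and 23.6, 25.6, 24.0 and 23.3 FPKM under cisplatin (-0.09 ± 0.14). Of the list of uptake, efflux and chaperone genes 9 of 15 were positive (median 0.06), and of the glutathione, metallothionein and Nrf2 genes 12 of 24 (median 0.00). Nqo1, a quinone reductase and a standard Nrf2 target, and Gsta4, a glutathione transferase, were below all PBS tumours in all cisplatin tumours (-0.50 ± 0.21 and -0.53 ± 0.24). So were 1.49% of all genes tested. Among Bcl2 family and caspase genes 10 of 23 were positive (median 0.00). In the S phase list 7 of 26 were positive (median -0.12, -0.07 without WT cisplatin 4 and -0.02 relative to all genes in TPM), with Gins1, a part of the replicative helicase, at 16.2, 9.58, 9.39 and 9.79 FPKM under PBS and 9.25, 6.87, 6.62 and 6.07 FPKM under cisplatin. In the mitosis list 13 of 28 were positive (median -0.02), and in BdP tumours 24 of 28 (median 0.16).

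Of 11 laminin chains 5 passed the filter on low values, Lamb1 among them (median 0.27, 0.02 without WT PBS 1 and 0.17 without WT cisplatin 2). Lama4, the alpha chain of vessel and muscle laminins, measured 7.34, 7.03, 6.14 and 7.93 FPKM under PBS and 9.58, 9.26, 9.12 and 10.3 FPKM under cisplatin (0.38 ± 0.12, adjusted p = 0.553), without overlap. Lamc1, the gamma chain that partners Lamb1 in most laminins, measured 7.06, 13.8, 17.2 and 15.6 FPKM under PBS and 14.8, 19.6, 15.3 and 13.4 FPKM under cisplatin (0.27 ± 0.22). Lamb2 and Lama5 had changes of 0.15 ± 0.16 and 0.00 ± 0.20. Other basement membrane genes were positive in 11 of 15 (median 0.30, and 0.16 without WT PBS 1). Sparc, a collagen-binding matrix protein, was at 137 ± 31.4 FPKM under PBS and 182 ± 15.6 under cisplatin (0.43 ± 0.17), and Fbln1, a fibulin, had a change of -0.65 ± 0.20. Interstitial matrix and fibroblast genes were positive in 4 of 9 (median -0.16, 0.10 without WT PBS 3 and -0.63 without the 3 libraries rich in mitochondrial reads).

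Guidance and polarity genes held single members near the top rather than a shift of the group. Semaphorins, plexins and neuropilins were positive in 12 of 19 (median 0.12, from -0.02 without WT PBS 1 to 0.20 without WT PBS 3 when 1 tumour was left out, and -0.08 relative to all genes in TPM). Besides Sema3f, which passed the filter only through the cisplatin tumours, Plxnd1 was separated upwards. Plxnd1, a plexin of vessel patterning, was at 32.0, 49.9, 43.3 and 46.7 FPKM and then 61.3, 58.5, 62.6 and 56.3 FPKM (0.48 ± 0.15, adjusted p = 0.553). Sema4f was separated downwards (-0.41 ± 0.14). Of the planar polarity and Wnt regulators 9 of 14 were positive (median 0.18, 0.03 without WT PBS 1 and 0.12 without WT PBS 3), with Prickle1 the 1 without overlap. Over all genes tested, 1.75% were separated upwards and 1.49% downwards. In the Ndrg family, Ndrg4, Ndrg1 and Ndrg3 had changes of 0.27 ± 0.18, 0.24 ± 0.22 and -0.05 ± 0.12 beside the 0.80 of Ndrg2.

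Melanocyte regulators and pigment genes had medians of opposite sign, except in TPM, where both were positive relative to all genes. Of the transcription factors and receptors of the lineage, 12 of 16 were positive, with a median of 0.20 (0.13 without WT PBS 1, 0.02 without the 3 libraries rich in mitochondrial reads, and -0.09 in BdP tumours). Mitf, the master regulator of melanocytes, measured 44.5, 68.1, 60.9 and 44.5 FPKM under PBS and 77.3, 62.7, 83.2 and 81.8 FPKM under cisplatin (0.49 ± 0.17, adjusted p = 0.596). In BdP tumours Mitf went from 73.0 ± 13.3 to 49.96 ± 7.92 FPKM (-0.53), and the difference between the 2 responses had an unadjusted p of 0.00082 (adjusted p = 0.835). Tbx2, a T-box repressor of senescence genes, was separated upwards, at 30.8, 34.7, 33.6 and 32.9 FPKM and then 49.2, 51.4, 46.5 and 37.3 FPKM (0.46 ± 0.13, adjusted p = 0.546). Pigment and melanosome genes, many of them Mitf targets, were positive in 5 of 18 with a median of -0.12, which was -0.02 without WT PBS 1, -0.24 without WT PBS 4 and 0.07 relative to all genes in TPM. Slc24a5, a melanosome ion exchanger, was at -0.43 ± 0.16 and Trpm1 at -0.85 ± 0.35.

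Markers of immune cells ranged widely within each group, and the groups overlapped. T cell markers summed to 28.2, 46.4, 176.6 and 6.54 FPKM under PBS and 10.9, 19.1, 147.5 and 29.3 FPKM under cisplatin. Macrophage markers summed to 862, 1684, 1929 and 330 FPKM under PBS and 457, 696, 1035 and 904 FPKM under cisplatin. WT PBS 3 was the tumour richest in both, WT PBS 4 the poorest, and WT cisplatin 3 was rich in T and B cell transcripts. The lowest sums of both lists were in WT PBS 4 and WT cisplatin 1 and 2, the WT tumours with Ddx3y above 0.1 FPKM. The part of host sex in this spread was not tested. B and plasma cell markers summed to 38.6 to 131.5 FPKM under PBS and 55.7 to 520.4 under cisplatin, the highest in WT cisplatin 3. Their median change was 0.86 with 19 of 21 positive, 0.19 without WT cisplatin 3 and -0.08 without the 3 libraries rich in mitochondrial reads. Igha, the heavy chain of IgA, was the 1 member without overlap, at 0.000, 0.069, 0.015 and 0.000 FPKM under PBS and 0.797, 0.750, 1.19 and 1.31 FPKM under cisplatin (0.97 ± 0.22, adjusted p = 0.304). The share of all genes tested with this upward separation was 1.75%.

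Interferon and antigen presentation genes followed the same tumours. Of the interferon gamma response genes 5 of 28 were positive (median -0.67), of the type I interferon genes 3 of 31 (-0.29), of MHC class I and peptide loading 1 of 18 (-0.40) and of MHC class II 3 of 12 (-0.44). Without WT PBS 3 these medians were -0.18, -0.03, -0.03 and 0.30, and without WT PBS 4 they were -1.19, -0.61, -0.94 and -1.37, the 2 ends of the range when 1 WT tumour was left out. Without WT cisplatin 1 the last 3 were -0.18, -0.18 and 0.05. The interferon gamma list summed to 249, 204, 628 and 73.8 FPKM under PBS and 98.6, 151.8, 185.7 and 126.7 FPKM under cisplatin, so the cisplatin tumours lay inside the PBS range. The MHC class I list likewise summed to 2697, 2198, 4060 and 947 FPKM and then 1216, 1788, 2001 and 1630 FPKM. No member of the 4 lists was separated in either direction, beside 1.75% upwards and 1.49% downwards of all genes tested. Checkpoint genes were positive in 4 of 21 (median -0.39, 0.06 without WT PBS 3 and -0.61 without WT PBS 4), macrophage markers in 3 of 17 (-0.39, -0.08 and -1.09), NK and cytotoxic markers in 2 of 17 (-0.39, 0.08 and -0.61) and T cell markers in 5 of 21 (-0.18, 0.23 and -0.66). The macrophage median was also -0.04 without WT PBS 2. By voom, with every library kept, the NK and T cell medians changed sign (0.28 and 0.20). The checkpoint and macrophage medians did not (-0.57 and -0.51). Without the 3 libraries rich in mitochondrial reads the medians were further below 0, at -0.80 for interferon gamma genes, -1.06 for MHC class II, -1.16 for macrophage markers and -0.98 for T cell markers. The part of the immune content of WT PBS 3 and 4 in the interferon difference was not tested beyond leaving each of them out.

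Transcripts of red cells were lower in the cisplatin tumours. Haemoglobin genes took 0.819%, 15.5%, 1.92% and 0.778% of reads under PBS and 0.128%, 0.005%, 0.611% and 0.694% under cisplatin. Every cisplatin tumour was below every PBS tumour (exact two-sided permutation test p = 0.0286, the smallest that 4 against 4 allows), with WT PBS 2 far above the rest and the smallest gap between WT PBS 4 and WT cisplatin 4. As a share of nuclear reads, a denominator chosen after seeing the data, WT PBS 4 (0.794%) was below WT cisplatin 4 (0.886%), and the exact permutation p was 0.0571. All 11 erythroid genes tested had a negative change (median -2.18, and -1.51 without WT PBS 2). Slc4a1, the anion exchanger of red cells, and Fech, the last enzyme of heme synthesis, were among the 3 without overlap (-1.597 ± 0.62 and -0.99 ± 0.34). Of all genes tested, 1.49% had every cisplatin tumour below every PBS tumour. Slc4a1 was below 1 FPKM in every WT cisplatin tumour and passed the filter only through other libraries, WT PBS tumours among them. Its separation and its sign are therefore partly set by the filter. How much blood each tumour held when it was taken is not in the labels, and its part in the lower red cell transcripts was not tested.

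**Figure D4:**
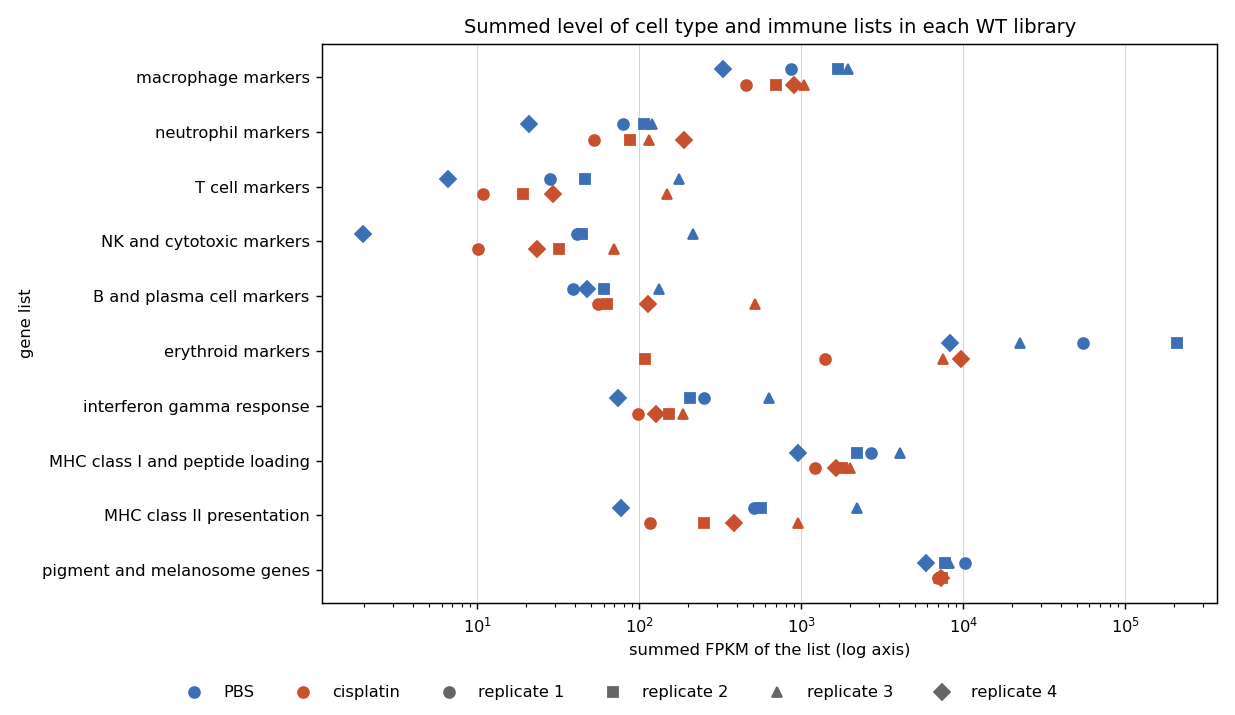
Summed FPKM (horizontal log axis) of 10 gene lists (vertical axis) in each WT tumour, with blue for PBS, red for cisplatin and marker shape for the replicate. The PBS tumours span the cisplatin tumours in the macrophage, T cell, NK, interferon gamma and MHC lists, with WT PBS 3 highest and WT PBS 4 lowest, while erythroid genes are low in WT cisplatin 1 and 2.

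Inflammatory and immediate early genes were positive in most cases, and their medians depended on the libraries rich in mitochondrial reads. Of the NF-kB and cytokine genes 19 of 22 were positive (median 0.59), and of the immediate early genes, which are also induced when tissue is dissociated, 25 of 28 (0.36). Il1b measured 5.91, 19.0, 43.2 and 4.51 FPKM under PBS and 9.52, 25.1, 57.7 and 100.3 FPKM under cisplatin, highest in WT cisplatin 4. Jund measured 21.8, 50.1, 50.2 and 55.1 FPKM under PBS and 49.7, 61.5, 69.8 and 51.2 FPKM under cisplatin, lowest in WT PBS 1. Without WT PBS 1 and WT cisplatin 3 and 4 the medians turned to -0.36 and -0.45, and without WT PBS 1 alone that of immediate early genes was -0.14. Over the runs without 1 WT tumour, the NF-kB median reached from 0.28 (without WT PBS 1) to 1.10 (without WT cisplatin 1), and the highest immediate early median was 0.69 (without WT PBS 3). Neutrophil markers were positive in 9 of 10 (median 0.67), with a median of 0.34 with WT PBS 4 left out, 0.44 with cisplatin 4 left out and 0.02 without those 3 libraries. Nuclear genes of the respiratory chain were positive in 2 of 39 (median -0.16, -0.08 without WT PBS 1 and -0.26 without WT PBS 3), and their median was 0.04 without those libraries and 0.04 relative to all genes in TPM. The share of mitochondrial reads averaged 21.4% under PBS and 9.57% under cisplatin (exact two-sided permutation test p = 0.8).

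Genes of the endoplasmic reticulum were slightly lower, with 7 of 24 unfolded protein and stress response genes positive (median -0.16, -0.08 without WT PBS 4 and -0.01 relative to all genes in TPM). Pdia6, a disulfide isomerase, measured 154.5, 119.4, 103.8 and 105.6 FPKM under PBS and 98.4, 99.4, 96.0 and 90.7 FPKM under cisplatin (-0.31 ± 0.14), without overlap. The stress-induced Ppp1r15a and Dnajb9 went the other way (0.87 ± 0.37 and 0.59 ± 0.25) and were lowest in WT PBS 1, at 7.85 and 7.23 FPKM. Hypoxia and glycolysis genes were positive in 17 of 32 (median 0.03, and 0.21 relative to all genes in TPM).

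**Figure D5:**
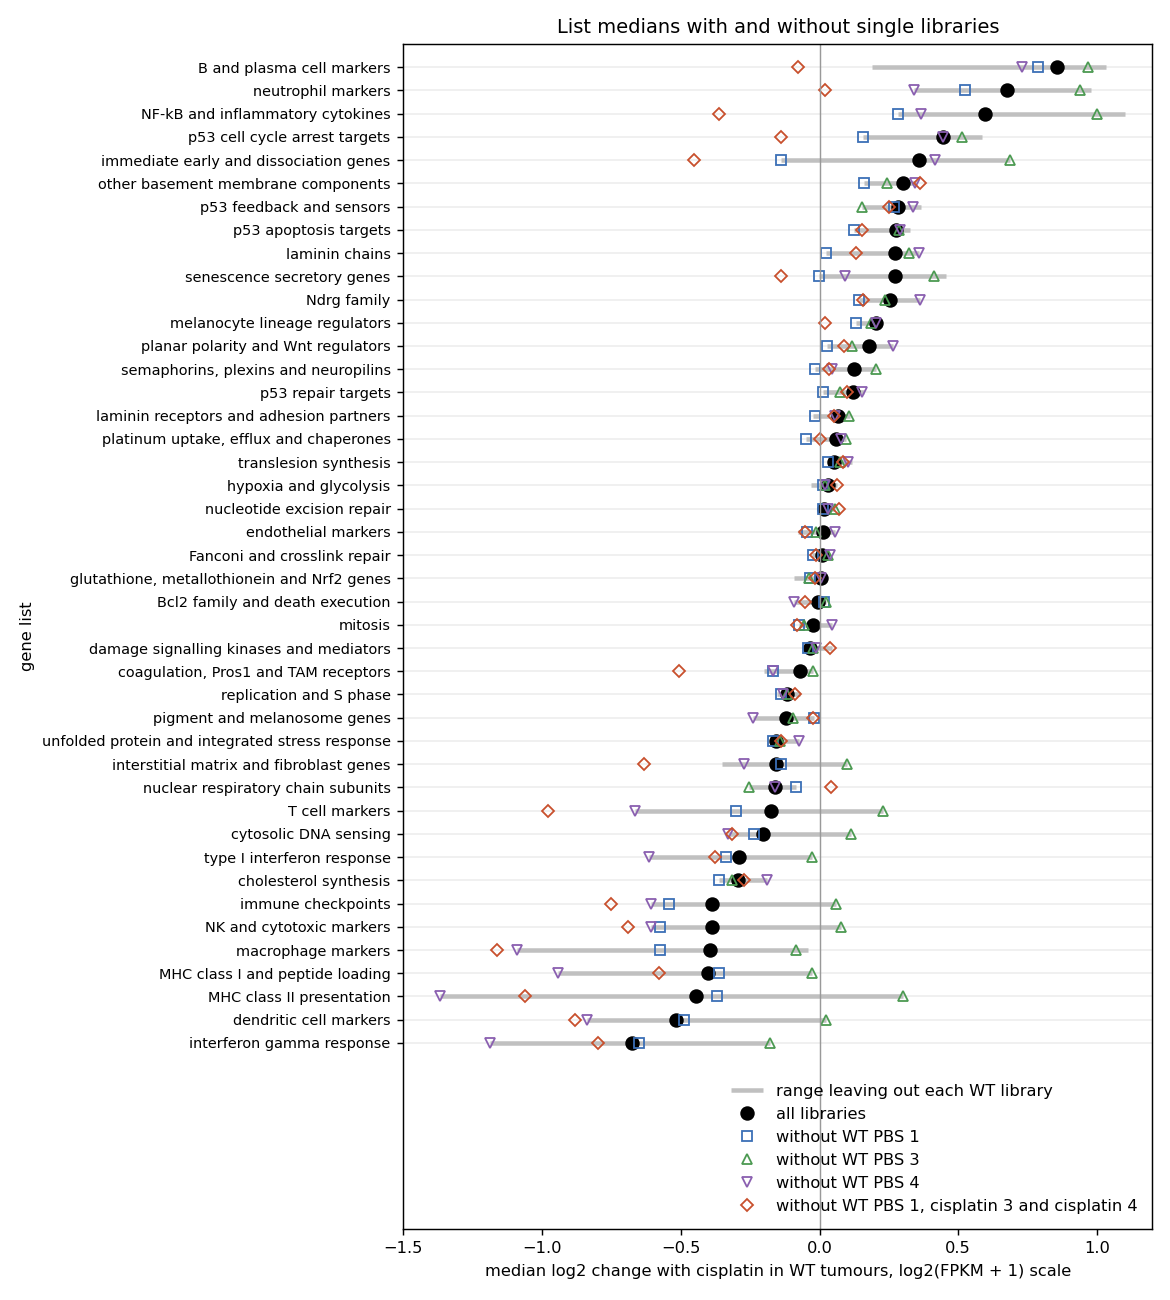
Median log2 change with cisplatin in WT tumours (horizontal axis) for each gene list with at least 4 genes tested, erythroid and mitochondrially encoded genes left out (vertical axis), over all libraries (black) and with named libraries left out (open symbols), where grey lines span the 8 runs that leave out 1 WT tumour. Sterol synthesis runs from -0.36 to -0.19 over those runs, while immediate early and NF-kB genes change sign without WT PBS 1, cisplatin 3 and cisplatin 4, and interferon gamma genes move towards 0 without WT PBS 3 and away from it without WT PBS 4.

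Pros1 (the anticoagulant protein S, a ligand of TAM receptors, low by design in BdP tumours) measured 9.77, 4.79, 5.89 and 5.42 FPKM under PBS and 10.4, 11.5, 7.78 and 11.4 FPKM under cisplatin in WT tumours (0.62 ± 0.17, adjusted p = 0.546). WT PBS 1 alone overlapped with the cisplatin group. Procr, the endothelial protein C receptor, was separated downwards, at 5.04, 3.52, 4.49 and 3.90 FPKM and then 2.06, 1.97, 2.33 and 3.10 FPKM (-0.64 ± 0.14, adjusted p = 0.216), and in BdP tumours its change was -0.68. Ptpn1, the gene of the phosphatase PTP1B in the series' title, measured 7.77, 11.01, 18.9 and 8.41 FPKM under PBS and 9.27, 10.9, 11.8 and 9.93 FPKM under cisplatin (-0.05 ± 0.24). The list of coagulation and TAM genes was positive in 5 of 16 (median -0.07, and -0.51 without the 3 libraries rich in mitochondrial reads).

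Set beside BdP tumours, where cisplatin called 0 genes and 542 had an unadjusted p below 0.05, no gene's response differed between the lines by limma (0.0% of 12319 called, 691 at an unadjusted p below 0.05, smallest adjusted p = 0.0795, and 1 gene by voom, Slc40a1). Lamb1 started lower in BdP tumours, at 0.363 ± 0.0987 FPKM under PBS and 0.518 ± 0.265 under cisplatin (0.14 ± 0.14), and the difference between the 2 responses was -0.89 ± 0.20 (unadjusted p = 0.0004, adjusted p = 0.486). The 12 genes highest by p in WT tumours had a median change of 0.80 there and 0.05 in BdP tumours, and the 12 lowest -0.48 and -0.09. The 24 were picked on the WT tumours, so these medians are a description. Cbr2 (-1.33 in WT, -1.10 in BdP) and Procr were nearly as far down in both lines.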

How the data were processed

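RNA sequencing was deposited as 1 table of FPKM per gene for 16 libraries, which the authors made on GRCm38 (mm10). The tools were CASAVA, HISAT2 (2.0.5) and, for counting, featureCounts (1.5.0-p3), per the submitters' processing notes. In each library, FPKM times length fell on whole steps for 100% of genes (tolerance 0.1 read), which gave reads per gene. The step sizes showed a scaling between libraries by the authors in the deposited FPKM, so none was added. Symbols turned to dates (27) were restored by identifier. Promoters came from RefSeq.

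Group means were fitted to log2(FPKM + 1) over all 16 libraries with limma 3.58.1 (R 4.3.3, trended empirical Bayes), 12319 genes, Benjamini-Hochberg adjustment, threshold 0.05. Errors of changes are moderated SE. Shares of reads were compared by exact permutation. Medians describe lists and carry no test. The procedure was tested on simulated data. No depth interval is given, and errors were taken from the spread between tumours. Counting adds to the error of low values, most in WT PBS 1, which had 2322202 nuclear reads. The other WT libraries had 9913661 to 21988423.

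Genes named were those called, the 12 protein-coding genes with the smallest p each way (group mean of 5 FPKM or more under 1 treatment), a set of damage genes with Lamb1, Pros1, Ptpn1 and Mitf, up to 5 genes with the smallest p per list, and 10 with levels most like Lamb1. The other members named, among them Hmgcs1 and the remaining sterol genes, were chosen after their values were seen. Some genes are not reported here. The members and lists were chosen with earlier results of these data known. Alternatives were another pseudocount, filters, TPM, array weights, voom on recovered reads, a replicate block and leaving out libraries.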

Additional observations from a re-analysis of the deposited data

Results flagged for a closer look

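In groups of 4 tumours, a value was looked at again when its gap to the nearest other tumour exceeded Dixon's critical share of the group's range, which chance gives in about 1 of 20 groups. Of 194 groups, 14 had such a value, 6 of them in WT PBS 1. In WT PBS 1 these were the share of mitochondrial reads (76.9%), the summed FPKM of mitochondrially encoded genes (3458000), nucleotide excision repair genes (392.0) and keratinocyte markers (4.61), and the FPKM of Ndufa4l2 (4.68) and Ercc1 (8.89). WT PBS 2 stood apart in its share of haemoglobin reads (15.49%), and WT PBS 3 in Fscn1 (13.9 FPKM). Under cisplatin, Ddah2 was high in tumour 1 (17.6 FPKM), endothelial markers in tumour 2 (62.7 summed FPKM) and both T cell markers (147.5) and B and plasma cell markers (520.4) in tumour 3, while L3mbtl2 (10.1 FPKM) and damage signalling genes (109.9 summed FPKM) were low in tumour 4. With replicates of 4, a single tumour of this kind can set a group's mean. The causes were not tested.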

How the results depend on the processing

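The count of genes called was 0 in TPM, in TPM over nuclear genes, with a mean of at least 5 FPKM (which leaves Lamb1 untested), with only the 8 WT libraries, with a pseudocount of 0.1 and without the libraries over 10% mitochondrial reads, where 315, 1881, 576, 530, 958 and 427 genes had an unadjusted p below 0.05. It was 24 with array weights, 3 with voom (Lamb1, Nr5a1 and D630003M21Rik) and 0 to 3 when any 1 library was left out, 3 without WT PBS 1 and 2 without WT PBS 4. With a replicate block it was 0 too (959 at an unadjusted p below 0.05), and Lamb1 was at 1.04 (adjusted p = 0.105). Whether the numbers pair the tumours is not in the labels. Same-numbered deviations correlated at -0.01, 0.04, 0.42 and -0.19, values of mixed sign that cannot decide it. Without a filter 1 gene was called, Gm11415 in place of Lamb1 (1.04, adjusted p = 0.0628). The Lamb1 change was 1.19 in TPM over nuclear genes and 1.02 in TPM, relative to all-gene medians of 0.49 and 0.70, 1.04 with only the 8 WT libraries, 1.33 with a pseudocount of 0.1 and 0.91 without the mitochondria-rich libraries, none of them called, and 0.95 to 1.10 leaving out 1 library. Genes whose response differed between the lines numbered 1 by voom and 0 to 1 leaving out 1 library (Igha without BdP cisplatin 4, 1810012K08Rik without WT PBS 4).

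The difference in haemoglobin share, -4.39 percentage points, was -5.14 as a share of nuclear reads (added after seeing the data, exact permutation p = 0.0571) and -5.72 to -0.81 leaving out 1 tumour, where 4 against 3 cannot give an exact p below 0.0571. Values near 0 changed sign. Slc31a1 was 0.045 and Ptpn1 0.016 in TPM. Leaving out 1 library gave -0.20 to 0.20 for Ptpn1, -0.32 to 0.040 for Ercc1 (0.040 without WT PBS 1) and -0.12 to 0.14 for Lama5. Lama5 was -0.044 in TPM over nuclear genes, -0.19 in TPM, -0.032 with array weights, -0.15 with voom and -0.22 without the mitochondria-rich libraries. The causes were not tested. Levels under about 1 FPKM are shrunk towards 0 by the pseudocount, and WT PBS 1 is the least precise library by depth.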

Other observations

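Host tissue around the tumour left few transcripts. Keratinocyte markers summed to 1.22 to 4.61 FPKM over the 8 WT tumours and skeletal muscle markers to 2.19 to 3.98, with 1 of 14 listed genes of each past the filter on low values. Adipocyte markers ran from 1.89 to 24.3 summed FPKM, highest in WT PBS 2 and 3, where most of it came from Lpl (19.3 and 18.0 FPKM). The same tumours had the highest sums of macrophage markers (1684 and 1929 FPKM). Which cells these transcripts came from was not tested. Endothelial markers ran from 48.3 to 62.7 summed FPKM, most of it from Eng, a TGF-beta co-receptor (37.6 to 56.2 FPKM), while Pecam1, an adhesion molecule of vessel walls, ran from 0.235 to 2.02 FPKM and Plvap, of endothelial diaphragms, from 0.773 to 3.79. Of 20 endothelial genes 5 passed the filter, with a median change of 0.01. Genes that sense DNA in the cytosol were positive in 3 of 12 (median -0.20, 0.12 without WT PBS 3 and -0.33 without WT PBS 4). Secretory genes of senescent cells were positive in 13 of 20 (median 0.27, close to 0 with WT PBS 1 left out, 0.09 with WT PBS 4 left out, 0.46 with cisplatin 1 left out, and -0.14 without WT PBS 1, cisplatin 3 and cisplatin 4), and Cxcl2, a neutrophil chemokine among them, measured 5.45, 59.4, 47.6 and 12.1 FPKM under PBS and 19.4, 62.1, 122.3 and 145.3 FPKM under cisplatin.

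With libraries weighted by their fit (WT PBS 1 then had a weight of 0.158), 24 genes were called, 19 higher and 5 lower. Among the higher were Lamb1 and Ndrg2, Sema3f, Ndufa4l2, Cited2, Sgpp1 and Pros1 described above, with the secreted superoxide dismutase Sod3, the Wnt antagonist Frzb, the small GTPase Diras1, the microtubule minus-end protein Camsap3 and the nuclear receptor Nr5a1. Commd10 was among those lower.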
